A study of Mus musculus with 2 samples.

Results

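The conjugation enzymes of the liver were examined gene by gene in spatial transcriptomes of 1 AEG-1-WT and 1 AEG-1-C75S liver. The set holds every gene whose symbol starts with Ugt1, Ugt2, Ugt3, Gst or Sult followed by a letter or digit. This gave 56 of the 19465 genes in the count tables. Sorted by symbol alone, they were 18 UDP-glucuronosyltransferase (UGT), 21 glutathione S-transferase (GST) and 17 sulfotransferase (SULT) genes. Gstcd is counted as GST by its symbol only. Both animals were female littermates of 8 weeks from matings of heterozygotes, untreated, and the same lobe was taken from each. AEG-1-C75S mice carry a knock-in made with CRISPR/Cas9 that replaces cysteine 75 of AEG-1 (also called metadherin, gene Mtdh), the residue at which the protein is palmitoylated, by serine, and AEG-1-WT mice carry the unedited gene. The edit is in the germline, so hepatocytes and all other cells of the liver carry it.

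The tissue was fixed in formalin and embedded in paraffin, and RNA was counted by Visium spatial transcriptomics on 1 section of 5 μm per animal. Pairs of probes that lie side by side on a transcript are ligated, captured on barcoded spots, and counted as UMIs (unique molecular identifiers). Several cells contribute to each spot, so fewer cells of a type and less RNA per cell cannot be told apart. After spots with more than 50000 UMIs were removed (7 and 4), 2309 and 2163 spots remained in the AEG-1-WT and the AEG-1-C75S section, with 42246988 and 41674347 UMIs. Spot barcodes are positions on the slide, and 1887 of them occurred in both tables. Levels are given as UMIs per 1000000 UMIs of the same spots (CPM). The sections are called WT and C75S hereafter. The number of probe pairs per gene was not used here, so levels were not compared between genes. The genotypes could not be tested against each other, since each has a single animal, and each interval on a ratio of the sections covers counting error only.

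Conjugation makes foreign and endogenous compounds water-soluble for excretion. UGT enzymes sit in the endoplasmic reticulum and transfer glucuronic acid from UDP-glucuronic acid to bilirubin, steroids, bile acids and drugs. Cytosolic GST enzymes join glutathione to electrophiles, and cytosolic SULT enzymes transfer sulfate from PAPS to phenols, steroids and amines. Blood enters the liver lobule at the portal triad and leaves at the central vein, and pericentral hepatocytes are known for much of the oxidative drug metabolism that feeds these reactions.

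To place the spots along this axis, the spots of each section were ranked by the ratio of Cyp2f2 to Cyp2e1, each plus 1 UMI, and cut into 5 equal bins, with bin 1 at the periportal and bin 5 at the pericentral end. Cyp2f2 went from 2444 CPM in bin 1 to 370 CPM in bin 5 in WT and from 2773 to 569 CPM in C75S. Of the markers that did not define the axis, Cyp1a2 and Oat were called pericentral and Pck1, Hal, Gls2, Hsd17b13 and Arg1 periportal. Ass1 was not called, and it had only 431 UMIs in WT and 380 in C75S (10.2 and 9.12 CPM). A gene was called zonal when edgeR's quasi-likelihood test of bin 5 against bin 1 gave an adjusted p under 0.05, with the section as a block, and the log2 ratio of CPM was at least 0.5 in the same direction in each section. The test rests on 4 sums from 2 animals of different genotype, with 1 residual degree of freedom per gene and a spread shared across genes.

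Of the 56 members, 3 (Ugt2a1, Sult6b2 and Sult1c1) had no UMI in either section, which allows a level of up to 0.0710 CPM in WT and 0.0720 CPM in C75S at 3 UMIs. A further 8 had between 1 and 47 UMIs over both sections and are not interpreted, namely Ugt2b38, Sult1e1, Sult2a6, Sult2b1, Gstt4, Sult4a1, Sult6b1 and Gsto2. The other 45 had at least 200 UMIs, and all 45 could be tested along the axis. They were 16 UGT, 19 GST and 10 SULT genes. Together the 56 members made 0.972% of the UMIs in WT and 0.863% in C75S.

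Many members lie in gene clusters and resemble each other, so probes for one gene may also capture a neighbor. To show where this may occur, windows of 50 bases, the length of a ligated probe pair, were compared between the GENCODE vM21 transcripts of all genes, since the probe sequences were not used here. At least 10% of the windows were shared with another gene for 18 members. The UGT1A genes, which have their own first exon and share the others, had between 54.2% (Ugt1a7c) and 79.8% (Ugt1a6b) of their windows in common with another gene. The share was 28.8% for Gstm3, 34.5% for Sult2a5, 62.1% for Sult2a2, 51.0% for Gstp1 and 50.4% for Gstp2. A probe pair in such a window would match both genes, and whether any pair lies in one was not tested. By contrast, no window of Gsta3, Ugt2b1, Sult1b1 or Sult2a7 occurred in another gene.

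The upstream sequences of 5 members are shown because their genes lie on either side of the zonal call: Gsta3, Gstm2 and Gstm3 were called pericentral, Ugt1a8 was called periportal, and Gstm1, the neighbor of Gstm2, was not called. Each run holds the 250 bases before the start of the curated RefSeq transcript on GRCm38.p6, in the direction of the gene, at chr1:21240335-21240584, plus strand, chr3:107969175-107969424, minus strand, chr3:107986421-107986670, minus strand, chr3:108017974-108018223, minus strand, and chr1:88087578-88087827, plus strand, respectively in the order of the lines. The first 20 bases before this start of Gsta3 are also part of a predicted transcript. Capitals mark the matches, on either strand, to 4 short motifs, namely the core of the xenobiotic response element (GCGTG), the core of the antioxidant response element (TGACNNNGC), the nuclear receptor half-site (AGGTCA) and a TCF site (CTTTGAT).
Gsta3: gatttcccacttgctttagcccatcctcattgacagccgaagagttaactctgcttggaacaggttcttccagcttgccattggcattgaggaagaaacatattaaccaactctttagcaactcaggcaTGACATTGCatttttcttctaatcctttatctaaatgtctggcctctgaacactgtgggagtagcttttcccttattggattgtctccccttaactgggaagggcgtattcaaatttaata
Gstm3: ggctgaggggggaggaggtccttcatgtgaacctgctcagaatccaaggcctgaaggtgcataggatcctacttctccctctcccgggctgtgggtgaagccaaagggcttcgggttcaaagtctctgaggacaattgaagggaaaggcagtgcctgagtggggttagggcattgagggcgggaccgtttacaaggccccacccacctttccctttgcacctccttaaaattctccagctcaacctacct
Gstm2: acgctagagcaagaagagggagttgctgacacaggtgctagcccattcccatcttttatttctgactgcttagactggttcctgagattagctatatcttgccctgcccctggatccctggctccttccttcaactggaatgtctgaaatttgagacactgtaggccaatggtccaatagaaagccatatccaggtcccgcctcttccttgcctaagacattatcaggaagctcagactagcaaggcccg
Gstm1: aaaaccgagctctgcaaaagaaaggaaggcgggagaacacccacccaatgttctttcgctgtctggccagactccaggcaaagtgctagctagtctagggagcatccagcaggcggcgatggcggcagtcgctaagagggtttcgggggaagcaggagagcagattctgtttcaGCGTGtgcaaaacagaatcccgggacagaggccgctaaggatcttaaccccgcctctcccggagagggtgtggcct
Ugt1a8: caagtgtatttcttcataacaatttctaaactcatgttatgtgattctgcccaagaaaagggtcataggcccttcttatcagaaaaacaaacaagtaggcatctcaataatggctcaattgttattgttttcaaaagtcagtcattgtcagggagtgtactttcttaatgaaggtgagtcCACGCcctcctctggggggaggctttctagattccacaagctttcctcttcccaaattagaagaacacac

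The table of promoters held 49 of the 56 members, and the matches shown do not overlap each other. Gsta3 had the antioxidant core 121 bases before the start, and Gstm1 and Ugt1a8 had the xenobiotic core at 76 and 70 bases. Gstm2 and Gstm3 held none of them. Over the 49 members, the xenobiotic core was found in 8, against 28.2% of all 32851 promoters, and in 0 of the 9 pericentral members with a sequence. The antioxidant core was found in 2 members, against 10.2% of all promoters, the half-site in 9, against 14.0%, and the TCF site in 1, against 3.21%. Each of these other motifs was found in 1 of the 9 pericentral members. These matches describe letters in a short window and say nothing of binding.

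Among the conjugation genes, pericentral calls outnumbered periportal ones. Of the 45 members tested, 11 were called pericentral, where 3.29% of all 11254 genes tested were, and 2 were called periportal, where 2.96% of all genes were. The pericentral members were 4 GST genes (Gsta3, Gstm2, Gstm3 and Gstm6), 5 SULT genes (Sult1b1, Sult2a5, Sult2a7, Sult2a8 and Sult3a2) and 2 UGT genes (Ugt1a6b and Ugt2b1). The periportal ones were Ugt1a8 and Sult5a1. Without the condition on size, the edgeR adjusted p was under 0.05 for 29 of the 45, where 16.2% of all genes tested passed. The members and all genes were not matched on UMIs, and 35 members had at least 1000 UMIs. Without the section block, Gstm2, Gstm3, Gstm6, Ugt2b1 and Sult5a1 were the members still called, and with DESeq2 in place of edgeR, Sult1b1, Sult2a7, Ugt1a6b and Ugt1a8 were not called. Bin 5 was above bin 1 in both sections for 36 members and below it in both for 6, and 3 members went opposite ways. These ratios use plain totals, and the same count was not made over all genes. Of the 36, Ugt2a3 and Sult1c2 had edgeR log2 ratios of -0.06 and -0.01 with TMM scaling, and the others stayed above 0. The median log2 ratio of bin 5 over bin 1 was 0.37 in WT and 0.27 in C75S, beside 0.11 and 0.09 over all genes tested.

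**Figure D1:**
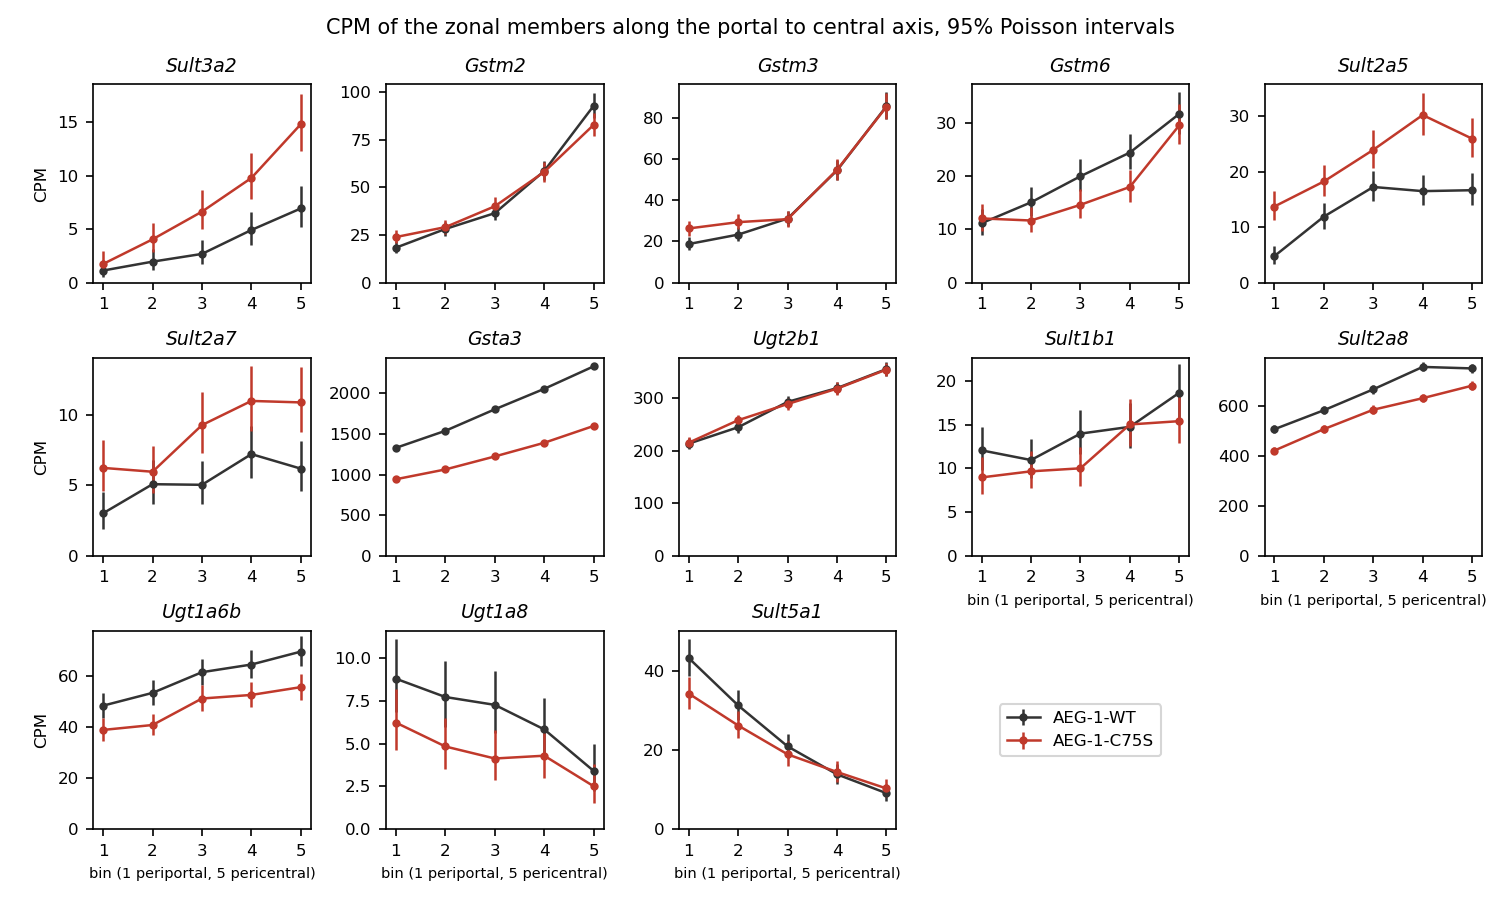
CPM (vertical axis) in the 5 within-section bins (horizontal axis, 1 periportal, 5 pericentral) for the 13 members called zonal, with WT in black, C75S in red and 95% exact Poisson intervals as bars. Gstm2 and Gstm3 climbed most from bin 3 to bin 5, whereas Gsta3 and Ugt2b1 rose by similar steps throughout.

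The steepest gradients among the GST genes were those of 3 neighbors in the mu class cluster. Gstm2 was counted at 18.3, 28.1, 36.5, 58.6 and 92.8 CPM in bins 1 to 5 of WT and at 23.9, 29.1, 40.0, 58.1 and 82.8 CPM in C75S. Gstm3 went from 18.7 to 85.6 CPM in WT and from 26.3 to 85.3 CPM in C75S. Both genes rose at each step and climbed most over the last 2 steps in both sections. The ratio of the ends was 5.06-fold and 3.46-fold for Gstm2 (edgeR adjusted p = 3.32e-09) and 4.57-fold and 3.24-fold for Gstm3 (adjusted p = 4.19e-09). Gstm6 went from 11.2 to 31.8 CPM in WT and from 12.1 to 29.6 CPM in C75S, a ratio of 2.84-fold and 2.45-fold (adjusted p = 1.44e-06).

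These 3 genes lie side by side. In the order of the chromosome (GRCm38.p6, chromosome 3, from 107895854 at Gstm5 to 108045179 at Gstm4), the cluster reads Gstm5, Gstm7, Gstm6, Gstm3, Gstm2, Gstm1 and Gstm4. The log2 ratio of bin 5 over bin 1 in WT followed this order as -0.09, 0.40, 1.51, 2.19, 2.34, 0.69 and 0.41, and in C75S as -0.17, 0.24, 1.29, 1.70, 1.79, 0.43 and 0.31. The middle of the cluster was thus steep and both flanks were shallow in each section. Gstm1 went from 472 to 763 CPM in WT and from 532 to 716 CPM in C75S. Its adjusted p was 1.94e-05, and it missed the call because its log2 ratio in C75S was below 0.5. The share of windows in common with any other gene was 8.30% for Gstm2, 9.74% for Gstm6 and 19.9% for Gstm1. The gene with the most of them was Gm12499 for Gstm2 (4.89%), Gstm3 for Gstm6 (5.69%) and Gstm2-ps1 for Gstm1 (14.9%). Gm12499 and Gstm2-ps1 are not among the members.

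**Figure D2:**
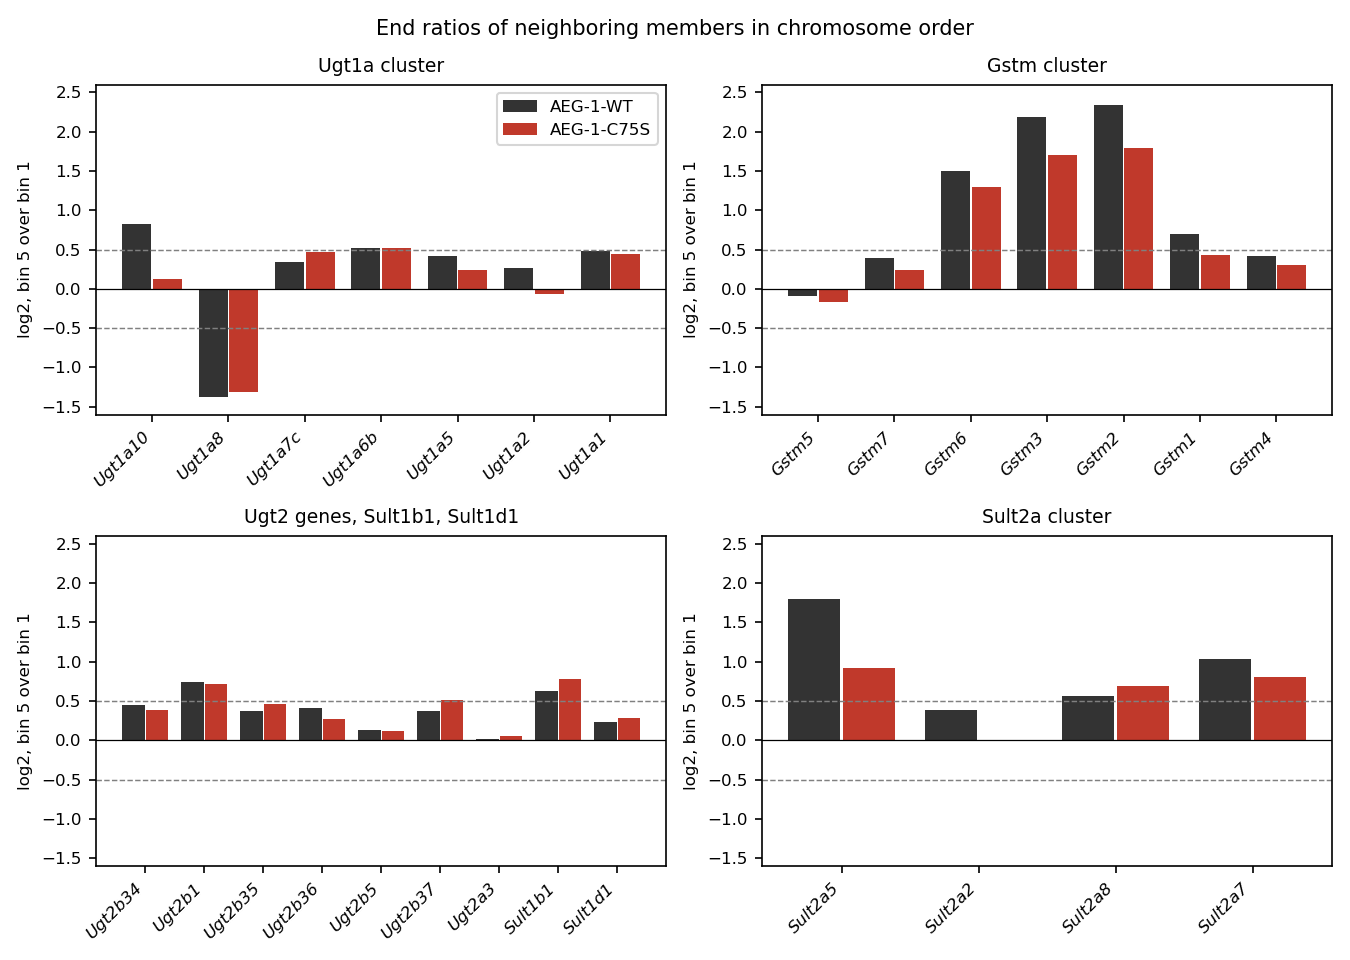
Log2 ratio of CPM, bin 5 over bin 1 (vertical axis), of tested members in chromosome order within the Ugt1a, Gstm and Sult2a clusters and among the members on chromosome 5, with WT in black, C75S in red and dashed lines at 0.5 and -0.5. The bars of Gstm6, Gstm3 and Gstm2 stand above those of their neighbors, and Ugt1a8 is the 1 member shown with bars below -0.5.

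The other GST genes had shallow gradients. Gsta3, an alpha class enzyme known in mice for its activity toward the epoxide of aflatoxin B1, went from 1329 to 2331 CPM in WT and from 943 to 1598 CPM in C75S. Its ratio of the ends was 1.75-fold and 1.70-fold (adjusted p = 3.98e-09). Gsta4, which conjugates the lipid peroxidation product 4-hydroxynonenal, ran the opposite way, from 118 to 95.3 CPM in WT and from 130 to 96.7 CPM in C75S, with an adjusted p of 4.11e-05 and log2 ratios of -0.30 and -0.43 that did not reach the size of a call. Alpha class genes of one family thus ran in opposite directions along the axis. Gsto1, an omega class enzyme, was also lower at the pericentral end, at 207 against 182 CPM in WT and 202 against 176 CPM in C75S (adjusted p = 0.000685). Gstt1 and Gstz1, the latter known as maleylacetoacetate isomerase of tyrosine breakdown, were higher at the pericentral end by log2 ratios of 0.32 and 0.27 (Gstt1) and 0.32 and 0.29 (Gstz1), with adjusted p of 0.00357 and 0.00411. Gstk1, Gstm4 and Gstm7 also passed the test, with adjusted p of 0.0392, 0.0249 and 0.0273. The test was not passed by Gstm5, Gstt2, Gstt3, Gstp1, Gstp2, Gstp3 or Gstcd, whose adjusted p lay between 0.0786 (Gstt3) and 0.965 (Gstp2).

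Among the SULT genes, Sult3a2 had the steepest gradient of all members. The Sult3a enzymes are known for sulfating amines. Sult3a2 was counted at 1.13, 1.96, 2.68, 4.92 and 6.93 CPM along the bins of WT and at 1.74, 4.05, 6.63, 9.78 and 14.8 CPM along those of C75S. Every bin was above the one before in both sections. The ratio of the ends was 6.13-fold and 8.49-fold (adjusted p = 2.03e-06), with bin 1 resting on only 9 and 14 UMIs, so that the 95% interval of the log2 ratio ran from 1.59 to 3.82 in WT.

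The Sult2a genes, which sulfate hydroxysteroids and bile acids and are known for high levels in female mouse liver, were not uniform. Sult2a8 went from 507 to 750 CPM in WT and from 421 to 681 CPM in C75S (adjusted p = 9.14e-07). Sult2a5 went from 4.78 to 16.6 CPM in WT, where bins 3 to 5 were about equal, and from 13.7 to 25.9 CPM in C75S, with its peak of 30.2 CPM in bin 4 (adjusted p = 0.000293). Sult2a7 went from 3.02 to 6.18 CPM and from 6.23 to 10.9 CPM (adjusted p = 0.0165). By contrast, Sult2a2 had 23.9 and 31.1 CPM at the ends in WT and 37.7 and 37.9 CPM in C75S, and did not pass the test (adjusted p = 0.769). Sult2a2 and Sult2a5 share part of their sequence, so that their counts may mix. The gene with the most windows of Sult2a2 (41.3%) was Sult2a1, which is not among the members.

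Of the phenol sulfotransferases, Sult1b1, which is known to act on thyroid hormones, was pericentral, at 12.1 against 18.7 CPM in WT and 8.97 against 15.4 CPM in C75S (adjusted p = 0.00863), a call that was lost with DESeq2. Sult1a1, the main phenol sulfotransferase, ran the other way, from 817 to 695 CPM in WT and from 566 to 468 CPM in C75S. Its adjusted p was 1.68e-05, but its log2 ratios of -0.23 and -0.27 were too small for a call. Sult1d1, which sulfates catecholamines, was highest in bin 4 of both sections, at 505 and 398 CPM, and was higher at the pericentral than at the periportal end (adjusted p = 0.0248). Sult1c2 did not pass the test (adjusted p = 0.987). Sult5a1 had the strongest periportal gradient of all members. It fell at every step, from 43.2 through 31.3, 20.9 and 13.8 to 9.07 CPM in WT and from 34.3 through 26.2, 18.9 and 14.4 to 10.3 CPM in C75S (adjusted p = 1.75e-08). All 4 cholangiocyte genes and 2 of the 3 portal matrix genes were called periportal as well. Sult5a1 and Ugt1a8 kept their call without the 5% of spots richest in these genes. The part of portal cells in the remaining spots was not tested.

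Of the 16 UGT genes tested, 2 were called pericentral and 1 periportal. Ugt2b1 was the most zonal of the Ugt2b genes, whose enzymes act on steroids and bile acids, and its levels of 214 and 356 CPM at the ends in WT were close to the 216 and 355 CPM in C75S (adjusted p = 1.83e-07). Ugt1a6b, which belongs to the enzymes for small planar phenols, went from 48.4 to 69.6 CPM and from 38.9 to 55.6 CPM (edgeR adjusted p = 0.000677). Its log2 ratios of 0.52 and 0.52 on plain totals were just past the size of a call. With TMM scaling its edgeR log2 ratio was 0.42. Ugt1a1, the bilirubin UGT, fell just short with 0.48 and 0.44 (adjusted p = 2.09e-05), at 445 and 618 CPM in WT and 463 and 630 CPM in C75S. Ugt1a5, Ugt2b34, Ugt2b35, Ugt2b36 and Ugt3a2 passed the test as well, with log2 ratios between 0.24 (Ugt1a5 in C75S) and 0.47 (Ugt2b35 in C75S) and adjusted p between 0.000275 (Ugt2b34) and 0.0220 (Ugt3a2). Ugt2b5 and Ugt2a3, with 34109 and 32453 UMIs over both sections, had log2 ratios of only 0.13 and 0.02 in WT and 0.11 and 0.06 in C75S and did not pass it (adjusted p = 0.852 and 0.400). Neither did Ugt1a10, Ugt1a2, Ugt1a7c, Ugt2b37 or Ugt3a1, with adjusted p between 0.0887 (Ugt3a1) and 0.998 (Ugt1a2). Ugt3a1 had log2 ratios of 1.13 and 0.85 but only 204 UMIs over both sections.

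Ugt1a8 was periportal in a cluster where the other members tested were not. It had 8.80 CPM in bin 1 and 3.40 CPM in bin 5 of WT, and 6.23 and 2.51 CPM in C75S (adjusted p = 0.000413). The sums at the ends were 70 and 27 UMIs in WT and 50 and 21 in C75S, and DESeq2 in place of edgeR did not call it. Along chromosome 1 (GRCm38.p6, from 88055411 at the start of Ugt1a10 to 88220002), the log2 ratios in WT were 0.83 for Ugt1a10, -1.37 for Ugt1a8, 0.34 for Ugt1a7c, 0.52 for Ugt1a6b, 0.42 for Ugt1a5, 0.26 for Ugt1a2 and 0.48 for Ugt1a1. In C75S they were, in the same order, 0.13, -1.31, 0.47, 0.52, 0.24, -0.06 and 0.44. Ugt1a10 had only 30 and 53 UMIs at the ends in WT and 21 and 24 in C75S. Ugt1a8 shared 59.7% of its windows with other genes of the cluster. Ugt1a9 and Ugt1a6a, the genes sharing most windows with Ugt1a10 and Ugt1a6b, are not among the members. The order above therefore leaves them out.

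**Figure D3:**
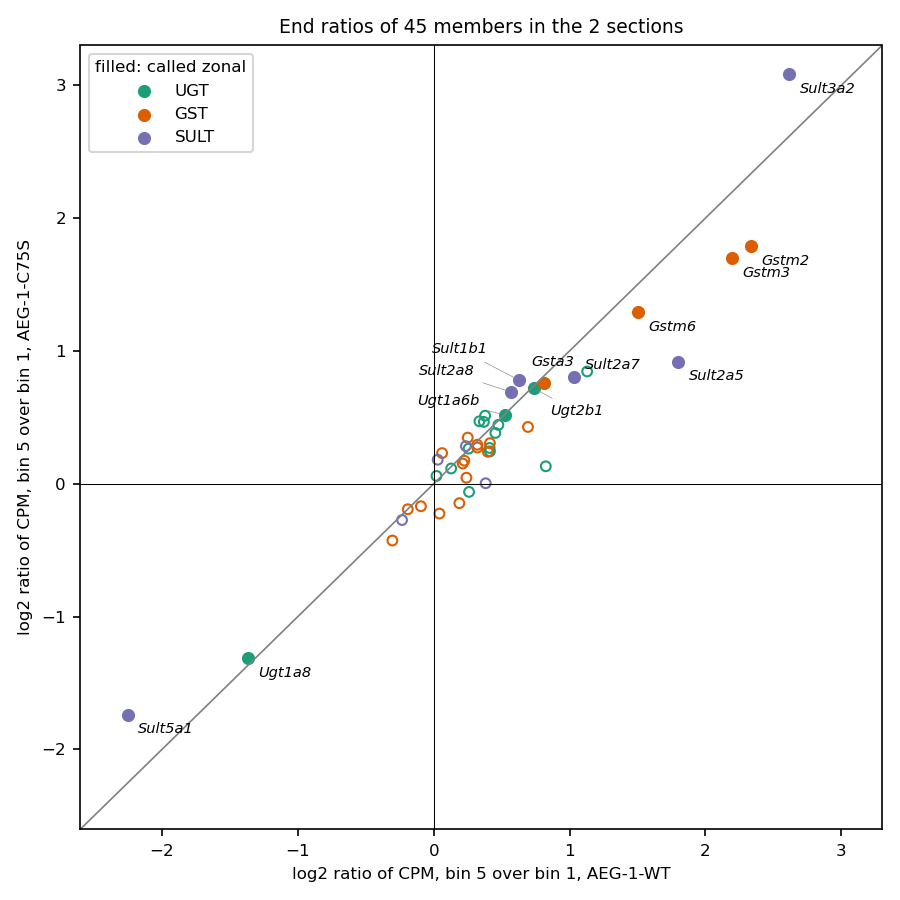
Log2 ratio of CPM, bin 5 over bin 1, in WT (horizontal) and C75S (vertical) for the 45 members tested, colored by family and filled where called zonal, with the line of equality in grey. Most points lie near the line, and Sult2a5, Ugt1a10, Gstm2 and Gstm3 lie farthest below it.

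The order of the gradients was similar in both livers. Across the 45 members, the 2 log2 ratios had a Pearson r of 0.95 and a Spearman rho of 0.88, a description across genes that share the same spots, and genes are not independent replicates. Of the 11 pericentral members, 8 had a smaller ratio of the ends in C75S than in WT, as did 220 of the 370 pericentral genes in all, and both periportal members were flatter too, as were 214 of the 333 periportal genes. No member was highest in the middle of the axis in both sections, by at least 0.25 on the log2 scale above both ends, where 3.21% of all genes were.

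The ratio of the genotypes differed between the ends of the axis by at least 0.5 on the log2 scale for 3 of the 38 members with enough UMIs. The share of all genes was 3.1% with a difference upward and 3.26% with a difference downward, and 1 and 2 members were so called. With counts this small, the members were not set apart from all genes. For Gstm2, C75S over WT was 0.38 in bin 1 and -0.16 in bin 5, a difference of -0.55 with a 95% counting interval from -0.89 to -0.20. Its neighbor Gstm3 fell just short of the call, with 0.49 in bin 1 and -0.01 in bin 5, a difference of -0.495 (-0.83 to -0.16). For Sult2a5, the ratio was 1.52 in bin 1 and 0.64 in bin 5, a difference of -0.88 (-1.50 to -0.26). Sult5a1 went the other way, with -0.34 in bin 1 and 0.18 in bin 5, a difference of 0.51 (0.01 to 1.02). For the genes named here this amounted to a flatter gradient in C75S, as it did for most zonal genes counted above. No test of these differences was possible with 1 section per genotype, and Cyp2f2 and Cyp2e1, which define the bins, themselves had a smaller ratio of the ends in C75S.

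Summed over each family, the sections differed by less than the size of a call. The UGT genes had 2993 CPM in WT and 3090 CPM in C75S, a log2 ratio of 0.05 (95% counting interval 0.03 to 0.06). The GST genes had 4750 and 3964 CPM, a log2 ratio of -0.26 (-0.27 to -0.25), and the SULT genes had 1976 and 1573 CPM, a log2 ratio of -0.33 (-0.34 to -0.31). Gsta3 made 38.1% of the GST UMIs in WT and 31.4% in C75S, and Sult1a1 made 38.1% and 32.8% of the SULT UMIs. These sums and shares weigh each gene by the number of its probe pairs.

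**Figure D4:**
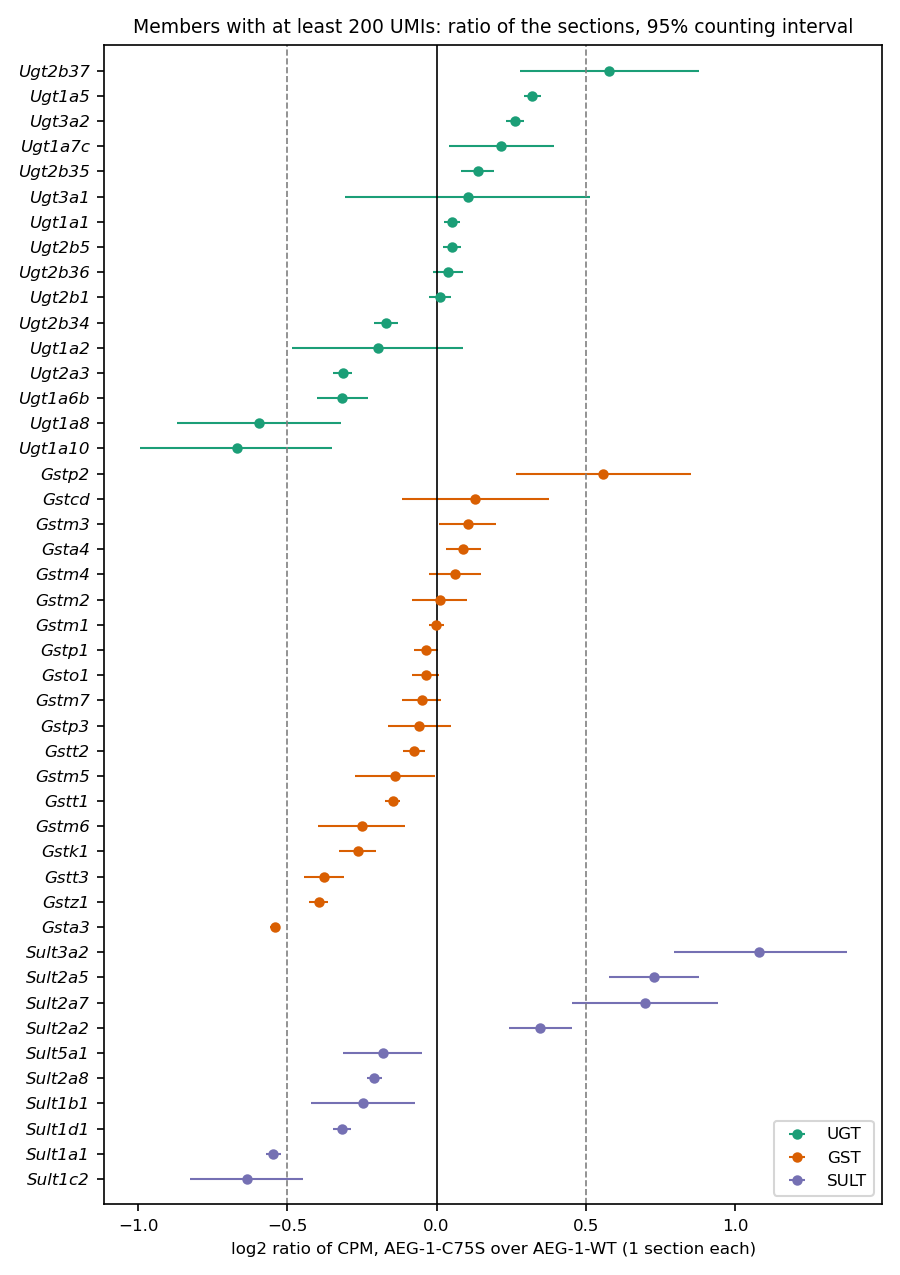
Log2 ratio of CPM, C75S over WT (horizontal axis, 1 section each), for the 45 members with at least 200 UMIs, grouped by family and ordered by ratio, with 95% exact binomial counting intervals and dashed lines at the size of a call. Gsta3 and Sult1a1 lie just past -0.5 with narrow intervals, and Sult3a2 lies farthest to the right.

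Single members differed more, in both directions. At a log2 ratio of at least 0.5 and 200 UMIs over both sections, 5 of the 45 members were higher in C75S, where 2.44% of all 10389 genes were, and 5 were lower, where 4.61% of all genes were. The higher ones were Sult3a2, Sult2a5, Sult2a7, Ugt2b37 and Gstp2, and the lower ones were Gsta3, Sult1a1, Sult1c2, Ugt1a8 and Ugt1a10. The median log2 ratio of the members was -0.04, beside -0.05 over all genes with the same minimum, and 25 members lay below and 20 above 0. The counting interval lay below 0 for 19 members, above 0 for 14 and held 0 for 12. The same count was not made over all genes. These intervals narrow as UMIs increase and leave out the variation between animals, so they do not show a difference between the genotypes.

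Among the lower members, Gsta3 and Sult1a1 carried most of the UMIs. Gsta3 had 76488 UMIs (1810 CPM) in the WT section and 51841 UMIs (1244 CPM) in the C75S section, a log2 ratio of -0.54 (-0.56 to -0.53), and the ratio lay between -0.56 and -0.50 in each of the 5 bins. Sult1a1 had 31800 UMIs (753 CPM) and 21474 UMIs (515 CPM), a log2 ratio of -0.55 (-0.57 to -0.52), with -0.60 to -0.51 in the bins. Both were lower at every position of the axis by nearly the same amount. They sit at the edge of the call, and both lost it with TMM factors, at -0.49 each. Sult1c2 had 14.2 and 9.12 CPM (-0.64, -0.83 to -0.45), Ugt1a10 had 5.04 and 3.17 CPM (-0.67, -0.99 to -0.35) and Ugt1a8 had 6.63 and 4.39 CPM (-0.59, -0.87 to -0.32). With equal weight for every spot or with spots matched on total UMIs, Ugt1a8 came to -0.43 and -0.45.

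The higher members all had low counts. Sult3a2 had 148 UMIs (3.50 CPM) in WT and 309 UMIs (7.41 CPM) in C75S, a log2 ratio of 1.08 (0.79 to 1.37). Sult2a5 had 571 and 933 UMIs (13.5 and 22.4 CPM), a log2 ratio of 0.73 (0.58 to 0.88), and Sult2a7 had 225 and 360 UMIs (5.33 and 8.64 CPM), a log2 ratio of 0.70 (0.45 to 0.94). Sult2a2 was 0.35 higher (0.24 to 0.45), whereas Sult2a8, in the same cluster, was at -0.21 (-0.23 to -0.18). The pericentral Sult1b1 was at -0.25 (-0.42 to -0.07). Ugt2b37 had 3.72 and 5.54 CPM (0.58, 0.28 to 0.88) and Gstp2 had 3.93 and 5.78 CPM (0.56, 0.27 to 0.85). Ugt2b37 shared 18.3% of its windows and Gstp2 50.4% with other genes. The log2 ratio of their relatives Ugt2b5 and Gstp1 was 0.05 (0.02 to 0.08) and -0.04 (-0.08 to 0.00). Whether the counts of these relatives mix was not tested. Without the spots richest in bile duct and portal matrix genes, Gstp2 came to 0.48.

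The remaining 35 members lay within 0.5 of equal levels. Of those with an interval below 0, Gstz1 (409 and 311 CPM, log2 ratio -0.40), Gstt3 (96.8 and 74.6 CPM, -0.38), Sult1d1 (465 and 373 CPM, -0.32), Ugt1a6b (59.5 and 47.8 CPM, -0.32) and Ugt2a3 (428 and 345 CPM, -0.31) were farthest from 0. Of those with an interval above 0, Ugt1a5 (396 and 495 CPM, 0.32) and Ugt3a2 (358 and 430 CPM, 0.26) were among the farthest, and they had 37338 and 33051 UMIs over both sections. The Ugt3a enzymes use other UDP sugars than glucuronic acid. Gstm1 (567 and 567 CPM), Gstm2 (46.5 and 46.8 CPM) and Ugt2b1 (286 and 288 CPM) passed the test along the axis, and their whole-section log2 ratios between the genotypes were -0.00, 0.01 and 0.01.

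Called in both comparisons were 5 members. Sult2a5, Sult2a7 and Sult3a2 were pericentral and higher in C75S, as were 0.27% of the 10386 genes examined in both comparisons. Gsta3 was pericentral and lower, as were 0.385% of all genes, and Ugt1a8 was periportal and lower, as were 0.655%. No member was both periportal and higher, where 0.183% of all genes were. Called in neither comparison were 27 members, beside 88.6% of all genes.

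Other cell types were unequal between the sections, and their part in these ratios was not tested. The portal matrix genes Mgp, Dpt and Col1a1 had 67.9 CPM together in WT and 23.6 CPM in C75S, and all 3 were lower. The 4 cholangiocyte genes had 119 and 87.7 CPM together. Of the 3 with enough UMIs, Krt7 was called lower, at -1.06, and Spp1 and Epcam were at -0.42 and -0.46. Krt19, at -0.69, had too few UMIs for a call. The 5 Kupffer cell genes had 866 and 1159 CPM, with 1 (Marco) called higher, and the 4 stellate genes had 551 and 703 CPM with none called. Of the 4 hepatocyte genes, which had 167984 and 173092 CPM, 1 (Apoa1) was called higher, at 0.50. The 2 red blood cell genes measured had 423 and 282 CPM together, with 1 (Hbb-bs) called lower, at -0.60. Along the axis, Alb (log2 ratios of -0.72 and -0.66) and the Kupffer cell gene Marco (-0.76 and -0.57) were called periportal, and the stellate gene Reln (0.66 and 0.71) was called pericentral. No other gene of these lists was called along the axis. Among the Kupffer cell genes, Fabp5 ran the other way from Marco (0.75 and 0.45), and Clec4f, Cd5l and Vsig4 lay between -0.21 and 0.03. Of the mid-lobular genes, Igfbp2 was higher, at 1.15, and Hamp lower, at -0.88, and the periportal Gls2 was lower, at -0.66.

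To see whether members were more abundant in bile duct regions, the 5% of spots with the largest share of UMIs from Spp1, Epcam, Krt7 and Krt19 were compared with the other spots of the same bins. Of 33 members with enough UMIs, 0 were at least 0.5 above the expected level in both sections, where 3.16% of all genes were, and 0 were as far below it, where 0.16% were. Gstm2 came nearest, at 34.4 CPM against 22.4 CPM expected in WT (log2 ratio 0.62, 95% counting interval 0.27 to 0.94) and 36.7 against 27.3 CPM in C75S (0.42, 0.05 to 0.77). At the other side, Sult2a2 had 22.8 against 28.4 CPM in WT (-0.32, -0.75 to 0.09) and 26.1 against 39.4 CPM in C75S (-0.59, -1.04 to -0.18). The periportal Sult5a1 was at its expected level, with log2 ratios of 0.06 (-0.27 to 0.38) and -0.02 (-0.44 to 0.38).

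**Figure D5:**
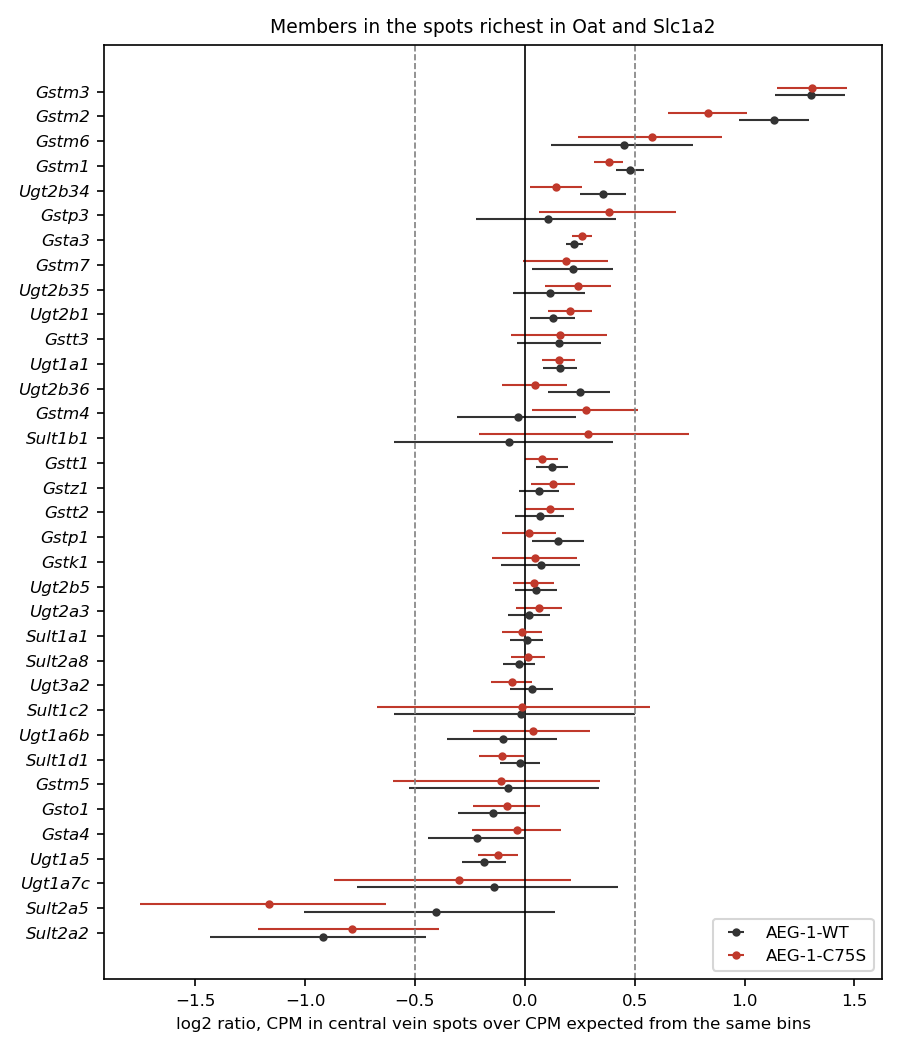
Log2 ratio of the CPM in central vein spots to the CPM expected from the other spots of the same bins (horizontal axis) for the 35 members with enough UMIs, in WT (black) and C75S (red), with 95% exact counting intervals and dashed lines at 0.5 and -0.5. Gstm3 and Gstm2 stand to the right in both sections and Sult2a2 to the left.

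At the other end, the 5% of spots with the largest share of Oat and Slc1a2, which mark the hepatocytes next to the central vein, were compared likewise. Bin 5 held 96 of the 115 such spots in WT and 85 of the 108 in C75S. Whether an excess in these spots is the gradient of the bins continued within bin 5 was not tested. Of 35 members, 2 were at least 0.5 above the level expected from their bins in both sections, where 0.69% of all genes were, and 1 was as far below it, where 0.414% were. Gstm3 had 155 CPM against 62.9 CPM expected in WT (log2 ratio 1.30, 95% counting interval 1.14 to 1.46) and 154 against 62.1 CPM in C75S (1.31, 1.15 to 1.46). Gstm2 had 156 against 70.8 CPM (1.14, 0.97 to 1.29) and 122 against 68.6 CPM (0.83, 0.65 to 1.01). Gstm6 came next, at 0.45 and 0.58, followed by Gstm1 at 0.48 and 0.38. The other mu class genes, Gstm4, Gstm5 and Gstm7, lay between -0.11 (Gstm5 in C75S) and 0.28 (Gstm4 in C75S). Sult2a2 was the member below the expected level, with 17.5 against 33.1 CPM in WT (-0.92, -1.43 to -0.45) and 24.1 against 41.5 CPM in C75S (-0.79, -1.21 to -0.39). Sult2a5, although called pericentral along the bins, had 13.1 against 17.4 CPM in these spots in WT (-0.40, -1.01 to 0.14) and 13.2 against 29.6 CPM in C75S (-1.16, -1.75 to -0.63). Gsta3 was moderately above at 0.22 and 0.26, and Sult2a8 was at -0.02 and 0.01.

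Of 12 genes that supply the co-substrates, 0 were called zonal and 0 were called between the sections. Ugdh, which makes UDP-glucuronic acid, had 73.9 and 81.9 CPM at the ends in WT and 74.6 and 82.5 CPM in C75S (adjusted p = 0.735). Gss, the glutathione synthetase, was higher at the periportal end, with log2 ratios of -0.47 and -0.40 (adjusted p = 3.14e-05). The PAPS synthases ran in opposite directions, with log2 ratios of -0.45 and -0.25 for Papss1 (adjusted p = 0.0287) and 0.36 and 0.38 for Papss2 (adjusted p = 0.000771). Between the sections, Gclc, the catalytic subunit of the first enzyme of glutathione synthesis, was the farthest above 0, at 0.39 (183 and 241 CPM), and Papss2 the farthest below, at -0.39 (352 and 269 CPM).

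Of the 10 regulators of conjugation genes measured, 3 were called pericentral and 0 periportal, and 0 were called between the sections. Ahr, the receptor for dioxin-like compounds, went from 23.0 to 65.0 CPM in WT and from 19.7 to 53.3 CPM in C75S (adjusted p = 1.87e-08). Nr1i3, which encodes the nuclear receptor CAR, had log2 ratios of 0.85 and 0.85, and Ppara had 0.64 and 0.62. Nr1i2 (the receptor PXR), Nfe2l2 (NRF2), Arnt, Hnf4a and Foxa2 did not pass the test, whereas Keap1 and Rxra did (adjusted p = 0.0215 and 0.0352). Between the sections, Ahr was the farthest below 0, at -0.36, and Foxa2 the farthest above, at 0.22. Mgst1, a membrane-bound glutathione transferase outside the GST gene families, was pericentral as well, with 2516 and 4292 CPM at the ends in WT and 2559 and 4251 CPM in C75S, and its log2 ratio between the sections was 0.02. Of the genes that remove conjugates, Gusb (log2 ratio 0.02 between the sections) and Arsa (-0.30) were measured with enough UMIs, and 0 were called.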

How the data were processed

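Visium spatial RNA of 1 AEG-1-WT and 1 AEG-1-C75S liver section was analysed. Per the labels, the authors used Space Ranger 2.0.1 and mm10, and the deposited values are raw UMI counts per gene and spot. Columns of other samples numbered 0. For 11 repeated symbols only the first row entered the analysis. Glul was not analysed here.

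Spots with at most 50000 UMIs were kept. UMIs were summed per section and per bin of the axis, and intervals are exact Poisson (sums) or exact binomial (ratios) at 95%, which cover counting error only. Zonal tests used edgeR 4.0.16 in R 4.3.3 on the 4 sums of the end bins, with TMM, filterByExpr, the section as a block and Benjamini-Hochberg adjustment over all 11254 genes tested. The middle of the axis was called at 0.25 on the log2 scale in each section, and differences along the axis at 0.5 with at least 200 UMIs in both end bins and 50 in each. Duct and vein spots were the top 5%, with at least 20 expected UMIs. The code was run on simulated counts with 200 genes changed by 1 on the log2 scale. The intervals covered the true ratio of the sections for 95.4% of 10389 genes. These counts were drawn with Poisson error only, the model of the intervals, so this coverage follows from the setup. The zonal call recovered 89.5% of the changed genes among 11247, with 0 calls among the others. There the spread was small and set in advance, and the other genes were exactly flat. The simulation therefore says nothing of smaller gradients or of the calls in these data. Python 3.11.15, numpy 2.4.6, scipy 1.17.1 and pandas 2.3.3 were used.

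Members with at least 1000 UMIs, other members called by any rule, and called or extreme genes of the other lists were named. The members and lists were chosen with earlier results of these data known. Of the lists, Hba-a1, Mgst3 and Sts were not analysed here. A further gene planned for the regulators is not reported here, and their counts leave it out. The labels pair no replicates. Alternatives varied the spot filter, scaling, spot weights, depth, minimum, fold, axis genes, bins, test (DESeq2 1.42.0), filter, portal spots and section block.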

Additional observations from a re-analysis of the deposited data

How the results depend on the processing

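The direction of each of the 42 members examined over the whole sections and of the 38 examined along the axis was kept wherever the member was called. Among the members not called, the sign changed under at least 1 alternative for 7 of 32 ratios of the sections (Gstm1, Gstm2, Gstm7, Gsto1, Gstp1, Gstp3 and Ugt2b1) and for 2 of 25 ratios of the ends (Gstp3 and Sult2a2). Under these alternatives, 55 ratios of the sections moved by more than their spread and 400 did not, and 71 ratios of the ends moved and 309 did not. The 5 lower members became 3 when ratios were centered on the median gene or scaled with TMM factors. Of all genes, 3.73% and 3.59% were lower at these settings, beside 4.61% in the main setting. The lower members became 2 at a minimum of 1000 UMIs and 0 at a log2 ratio of 1. The 5 higher members became 1 at the minimum of 1000 UMIs and 1 at a log2 ratio of 1. The 11 pericentral members became 4 without the section block and 4 at a log2 ratio of 1. The 2 periportal members became 1 with DESeq2 and 1 without the block. With DESeq2, 8 pericentral members remained, and Sult1b1, Sult2a7 and Ugt1a6b were lost. Ugt1a6b also lost its call with another axis, with 3 bins and without portal spots. Sult2a8 lost its call with 3 bins and with bins 4 and 5 against 1 and 2, where Ugt1a6b and Ugt2b1 lost theirs too. Calls were also gained. Ugt2b37 became pericentral with another axis, with 3 bins and with bins 4 and 5 against 1 and 2. Ugt3a1 became pericentral without TMM scaling. Ugt2b38, which has too few UMIs to be interpreted, became periportal with bins 4 and 5 against 1 and 2. The 3 members whose ratio differed along the axis became 1 with 3 bins and 0 at a difference of 1. The share of all genes is not given here for the other settings. Whether members lost calls more often than all genes did was not tested, and neither were the causes of these changes. No paired analysis was possible because each genotype has 1 section. Depth limits the members with under 200 UMIs, for which no ratio was interpreted, and the variation between animals cannot be estimated from these sections.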
